A study of Mus musculus with 16 samples.

Results

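Kap, Akr1c21, Cyp4b1 and Nat8 are known as genes of the kidney's proximal tubule whose RNA is known to respond to androgens. They were found as the probes that carried the single symbol of one of these 4 genes, of 9669 genes with such a probe on the array. Each of the 4 was represented by 1 probe, and each probe had a value on all 16 arrays. Whole kidney was set against liver, so these ratios do not show which part of the nephron holds the RNA. Markers that are not among the 4 were higher in kidney for the proximal tubule (8 of 8 measured) and for the distal nephron (3 of 3) alike. The androgen response itself was not measured, because the single mice were all males and the labels name no hormone treatment.

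Each array compared an organ of a single mouse, its left kidney or its dorsal liver lobe, with a pool of the opposite organ from 5 animals. The single mice were 3 wildtype males of the inbred strain C3HeB/FeJ, aged 105 ± 5 days and kept free of specified pathogens. On 7 arrays the single sample was kidney, with 3 arrays for mouse 1, 3 for mouse 2 and 1 for mouse 3, and on 9 arrays it was liver, with 3 arrays per mouse. The age and sex of the pooled animals are not given in the sources used here, no castrated, female or hormone-treated group is labelled, and the repeat arrays of an organ of one mouse are technical.

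The proximal tubule reabsorbs most of the filtered solutes and proteins, and in mice it is among the tissues that respond most strongly to testosterone. Steroid hormones change transcription through nuclear receptors, several of which recognise inverted repeats of a short hexamer in DNA. In male mice, tubule cells carry more RNA of a set of enzymes and secreted proteins than in females. Kap encodes kidney androgen-regulated protein, a protein of tubule cells. Akr1c21 encodes an aldo-keto reductase that acts on hydroxysteroids, Cyp4b1 a cytochrome P450 that oxidises fatty acids and foreign compounds, and Nat8 an N-acetyltransferase that makes mercapturic acids from cysteine conjugates.

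The sequence before each gene's start is shown as a description. Kap, Akr1c21 and Cyp4b1 shared a feature there that Nat8 lacked, but this feature was picked after the windows had been read. A link between it and the array values was not tested. The windows are from RefSeq (mouse GRCm38.p6, a C57BL/6J reference, so differences of C3HeB/FeJ are not seen), run from 250 bases before to 50 bases after the start, and are printed 5′ to 3′ on the gene's strand. Capitals mark TGTTCT, a half-site of steroid hormone receptors such as the glucocorticoid receptor, searched on both strands, and TATAA on the gene's strand, searched with its first base between 40 and 20 bases before the start. The window of Kap is chr6:133853618-133853917 (minus strand), that of Akr1c21 chr13:4573825-4574124 (plus strand), that of Cyp4b1 chr4:115647672-115647971 (minus strand) and the first of 2 windows of Nat8 chr6:85836808-85837107 (minus strand).
Kap: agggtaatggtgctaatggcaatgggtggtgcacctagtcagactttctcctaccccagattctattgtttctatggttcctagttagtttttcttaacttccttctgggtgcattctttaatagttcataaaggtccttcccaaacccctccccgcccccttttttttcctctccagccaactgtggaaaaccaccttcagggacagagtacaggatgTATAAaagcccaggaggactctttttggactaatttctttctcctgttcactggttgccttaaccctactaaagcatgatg
Akr1c21: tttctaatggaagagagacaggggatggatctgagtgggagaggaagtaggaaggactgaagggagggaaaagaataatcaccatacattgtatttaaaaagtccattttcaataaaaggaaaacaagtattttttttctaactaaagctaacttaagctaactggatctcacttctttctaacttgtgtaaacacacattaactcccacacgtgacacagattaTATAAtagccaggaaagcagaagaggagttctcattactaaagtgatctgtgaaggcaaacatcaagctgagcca
Cyp4b1: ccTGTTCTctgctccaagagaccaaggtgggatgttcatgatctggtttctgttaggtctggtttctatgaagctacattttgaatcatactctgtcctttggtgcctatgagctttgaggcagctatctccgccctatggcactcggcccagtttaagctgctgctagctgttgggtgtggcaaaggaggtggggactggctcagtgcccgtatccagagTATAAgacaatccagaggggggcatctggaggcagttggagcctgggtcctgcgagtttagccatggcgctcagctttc
Nat8: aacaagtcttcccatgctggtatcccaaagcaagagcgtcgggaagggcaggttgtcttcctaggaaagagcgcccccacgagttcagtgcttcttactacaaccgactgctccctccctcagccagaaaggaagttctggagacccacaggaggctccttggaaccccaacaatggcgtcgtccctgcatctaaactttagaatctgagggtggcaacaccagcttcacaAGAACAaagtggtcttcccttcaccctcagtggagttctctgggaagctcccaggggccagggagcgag

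TATAA began 31 bases before the start of Kap, 25 before that of Akr1c21 and 29 before that of Cyp4b1. It was in neither window of Nat8, the second of which is chr6:85832230-85832529 (minus strand). Of 32851 RefSeq windows of 300 bases, 3.52% held TATAA in that interval, a motif that was searched only after the windows had been read. The receptor half-site was in Cyp4b1, 248 bases before the start, and on the opposite strand in the first window of Nat8, where AGAACA began 19 bases before the start. That match was part of AGAACAAAGTGGTCT, which fits the inverted repeat of the half-site, with 3 free bases between, at up to 2 mismatches. The half-site was in 19% of all windows and the repeat in 1.84%, and the windows of Kap and Akr1c21 and the second of Nat8 held neither. The half-site CAAAGTCC of hepatocyte nuclear factor 4 was in the second window of Nat8 (1.42% of all windows). GTTAAT, a half-site of hepatocyte nuclear factor 1, was in that window and in Akr1c21 (7.1% of all windows). These matches are descriptions of letters in short windows, and no binding was measured.

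The arrays gave log2 ratios, from which the levels of different genes cannot be compared. A difference in a ratio can come from fewer cells of a type or from less RNA per cell, which cannot be told apart in whole organs. On an array, between 15480 and 19432 of the 20419 probes had a value. The labels do not say which channel was the numerator. Their titles name the single mouse first, but hepatocyte markers had positive deposited values on the kidney arrays, so each value was taken as the pool divided by the single sample, and its sign was set to give kidney over liver. All 8 measured hepatocyte markers were then higher in liver, led by the plasma protein genes Ahsg (-8.01), Alb (-7.89) and Fgb (-7.81), with a median log2 difference of -6.18. This direction opposes the order of the titles, and with that order every sign below would turn with the same sizes and tests. The 6 arrays of mouse 2 had a median log2 ratio between -1.49 and -1.19 over all probes, while the absolute median of the other 10 was at most 0.00267. Values are given as deposited and, where this matters, after centring each array on its median.

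Kap, Akr1c21 and Cyp4b1 were the 3 probes with the largest kidney excess among 18670 tested, at 66.1-fold, 72.8-fold and 62.2-fold, and Nat8 was 3.53-fold higher in kidney. Of the 4 probes, 4 were called higher in kidney, with a median of 6.00, beside 5.18% of all probes and a median of -0.53 over them. The 4 genes were chosen with earlier results of these data known, so their calls and ranks are a description and not an independent outcome. Each of the 4 was positive on 16 of 16 arrays.

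For Kap, the log2 ratio of kidney over liver on the kidney arrays was 5.97, 6.45 and 6.19 in mouse 1, 5.01, 4.46 and 5.40 in mouse 2, and 6.88 in mouse 3. On the liver arrays it was 6.64, 5.47 and 6.68 in mouse 1, 6.04, 5.71 and 5.65 in mouse 2, and 5.04, 6.47 and 7.01 in mouse 3. Mouse 2 was lowest on the kidney arrays, whereas on the liver arrays its values lay within the range of mice 1 and 3. The mean over mice was 6.02 ± 0.979 (SD, n = 3) on kidney arrays and 6.08 ± 0.246 (SD, n = 3) on the liver arrays, with overlapping ranges. Over both array kinds, the difference was 6.05 (SE 0.28, 95% interval 5.40 to 6.70; limma, Benjamini-Hochberg adjusted p 4.79e-06), or 66.1-fold. The largest SD between repeat arrays of the same RNA for any of the 4 genes was that of Kap on the 3 liver arrays of mouse 3, at 1.02.

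For Akr1c21, the ratio on the kidney arrays was 6.00, 5.58 and 6.52 in mouse 1, 5.33, 5.44 and 5.28 in mouse 2, and 7.20 in mouse 3. The liver arrays gave 6.41, 6.59 and 6.62 in mouse 1, 5.47, 5.18 and 5.28 in mouse 2, and 6.42, 6.93 and 6.70 in mouse 3. As deposited, mouse 2 was lowest on both kinds of arrays, and none of its 6 values reached those of mice 1 and 3. Only the kidney arrays hold kidney RNA of mouse 2, so its liver arrays do not measure its kidney level again. The mean over mice was 6.19 ± 0.937 (SD, n = 3) on kidney arrays and 6.18 ± 0.753 (SD, n = 3) on the liver arrays. The difference of 6.19 (SE 0.31, 95% interval 5.47 to 6.90; limma, adjusted p 7.62e-06), or 72.8-fold, was the largest kidney excess of all probes tested, as deposited and after centring.

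For Cyp4b1, the ratio on the kidney arrays was 5.81, 6.42 and 6.19 in mouse 1, 4.69, 4.72 and 4.94 in mouse 2, and 6.20 in mouse 3. Liver arrays gave 6.49, 6.55 and 6.48 in mouse 1, 5.62, 5.62 and 5.52 in mouse 2, and 6.46, 6.72 and 6.42 in mouse 3. Mouse 2 was again below both other mice on every array, and repeat liver arrays of a mouse lay closer together than those of Kap. The mean over mice was 5.71 ± 0.798 (SD, n = 3) on kidney arrays and 6.21 ± 0.540 (SD, n = 3) on the liver arrays. The difference was 5.96 (SE 0.28, 95% interval 5.32 to 6.59; limma, adjusted p 4.60e-06), or 62.2-fold.

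For Nat8, the ratio on the kidney arrays was 1.41, 1.40 and 1.61 in mouse 1, 2.11, 2.00 and 2.35 in mouse 2, and 1.88 in mouse 3. Its liver arrays gave 1.87, 2.11 and 1.80 in mouse 1, 2.22, 2.20 and 2.20 in mouse 2, and 1.40, 1.40 and 1.06 in mouse 3. Here mouse 2 was highest on both kinds of arrays, as deposited the opposite of its place for Akr1c21 and Cyp4b1. That contrast depends on the processing, since after centring mouse 2 was not lowest for Akr1c21 or Cyp4b1 on either kind. The mean over mice was 1.84 ± 0.343 (SD, n = 3) on kidney arrays and 1.81 ± 0.470 (SD, n = 3) on the liver arrays. The difference was 1.82 (SE 0.23, 95% interval 1.29 to 2.35; limma, adjusted p 0.00118), and Nat8 was probe 324 in the order of kidney excess.

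**Figure D1:**
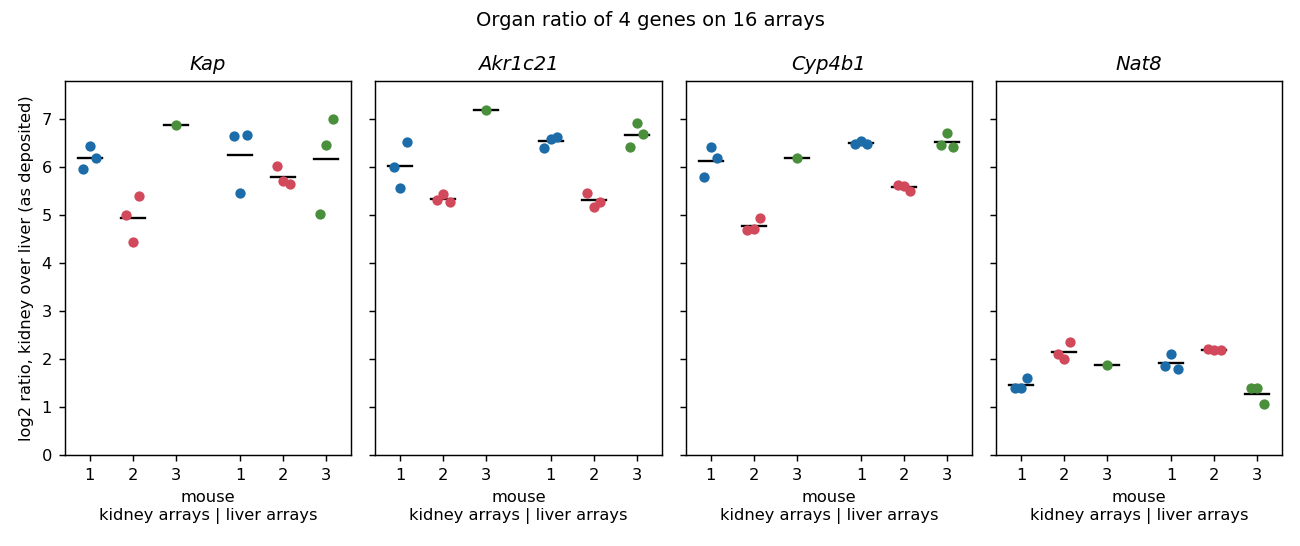
Log2 ratio of kidney over liver of each gene on the 16 arrays, as deposited and turned to kidney over liver; points are single arrays and bars their means, grouped by mouse and by whether the single sample was kidney or liver. The values of Kap, Akr1c21 and Cyp4b1 lie between 4.46 and 7.20, all above those of Nat8, which lie between 1.06 and 2.35. As deposited, mouse 2 is low for Akr1c21 and Cyp4b1 and high for Nat8. After centring, which is not drawn, it was not lowest for Akr1c21 or Cyp4b1.

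These SEs treat both organs of a mouse as if they came from different animals. With mouse as a replicate block, the SE was between 0.499 and 0.501 for each of the 4 genes. The fit with 1 value per mouse gave the same SEs, with 168 prior degrees of freedom against 4.21 in the main fit. Its variances were thus drawn strongly to a value common to all probes. These SEs, and the p-values that rest on them, therefore say little about the spread of each gene. All 4 kept their call under the replicate block, where the adjusted p of Nat8 was 0.00894 (limma).

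Among themselves, the 3 leading genes could not be ordered. Over the 6 averages of a mouse and organ, Kap differed from Akr1c21 by -0.14 ± 0.385 (SD), Kap from Cyp4b1 by 0.09 ± 0.374 and Akr1c21 from Cyp4b1 by 0.23 ± 0.475, and each of these differences had both signs. The ratio of Nat8 was below that of each of the other three on all 16 arrays. Kap exceeded it by 4.23 ± 0.865, Akr1c21 by 4.37 ± 1.00 and Cyp4b1 by 4.14 ± 0.958 on the log2 scale (SD, 6 averages). These compare organ ratios, not amounts of RNA, and all 4 values share the same arrays and pools.

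The ratios were also compared by whether the single mouse gave the kidney RNA or the liver RNA, with 3 mice per organ. Kidney arrays minus liver arrays was -0.06 (SE 0.57) for Kap, 0.02 (SE 0.62) for Akr1c21, -0.51 (SE 0.55) for Cyp4b1 and 0.03 (SE 0.46) for Nat8, with adjusted p of 1 in limma for each. Across all probes 0% were called for this difference (limma, 0 of 18670), and 46 had an unadjusted p under 0.05 (0.246%). That fit leaves out that the same mice gave both organs. Taken within each mouse, the difference for Cyp4b1 was -0.37, -0.80 and -0.34 in mice 1, 2 and 3, which is negative in 3 of 3 mice (SE 0.18). Its unadjusted p was 0.0212 and its adjusted p 0.597 in limma, in a comparison within mice that called 0.0648% of 18508 probes and was added after the data were seen. In that comparison 1521 of the 18508 probes had an unadjusted p under 0.05 (limma). For Kap (SE 0.27), Akr1c21 (SE 0.22) and Nat8 (SE 0.22) the differences within mice had both signs, with adjusted p between 0.962 and 0.991.

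Placed on the distribution of all estimates, Kap, Akr1c21 and Cyp4b1 lay at its upper end, and Nat8 among the genes with a moderate kidney excess. Over genes rather than probes, Akr1c21, Kap and Cyp4b1 were genes 1, 2 and 3 of 9047 and Nat8 gene 154, while 5.56% of genes were called higher in kidney and 8.88% higher in liver.

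**Figure D2:**
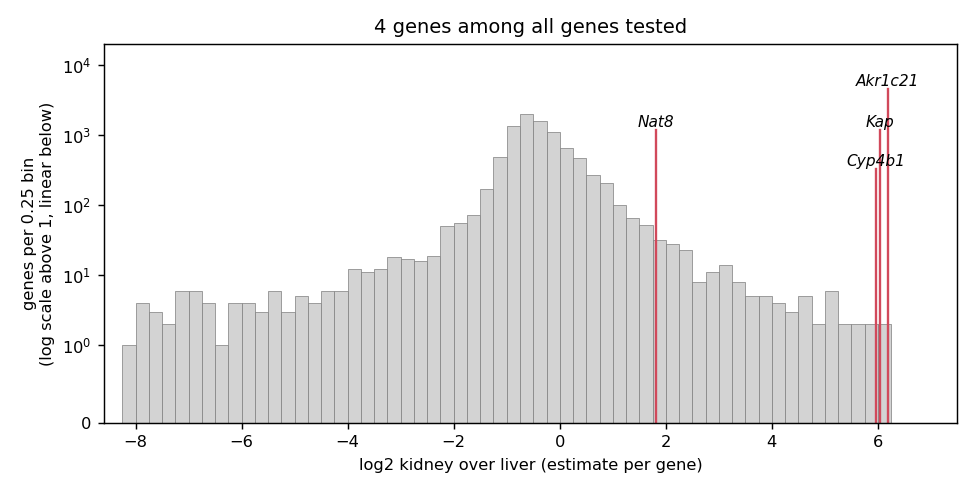
Distribution of the estimated log2 ratio of kidney over liver for the 9047 genes tested, as the number of genes per bin on a log axis (linear below 1), with the 4 genes marked by red lines whose height has no meaning. Nat8 is marked at 1.82 and the other three between 5.96 and 6.19, at the right end of the distribution.

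Genes other than these 4 whose values lay nearest to each of them were found by the root mean square difference in log2 ratio over arrays, among 7818 genes with a value on at least 14 arrays. With the 4 left out of the search, Kap, Akr1c21 and Cyp4b1 had the same 3 nearest genes, each with a large kidney excess. Dnase1, the gene of deoxyribonuclease 1, was the nearest of these to each, at a difference of 0.603 from Kap, 0.465 from Akr1c21 and 0.468 from Cyp4b1, with its own kidney excess at 5.83 (SE 0.30). Ndrg1 and Map1lc3b, a gene of autophagosome formation, followed, at 0.517 to 0.851. Between the 3 genes themselves the differences were 0.629 for Kap and Akr1c21, 0.546 for Kap and Cyp4b1, and 0.456 for Akr1c21 and Cyp4b1. So Akr1c21 and Cyp4b1 lay only slightly nearer to each other (0.456) than to Dnase1 (0.465 and 0.468), and Kap lay nearer to Cyp4b1 than to Dnase1. Kap was nearer to Dnase1 (0.603) than to Akr1c21 (0.629). Nearest to Nat8 were Xbp1, a transcription factor of the unfolded protein response, at 0.314, Tceal9 at 0.338 over 14 arrays and Prrt2 at 0.346, with kidney excesses of 1.59, 1.61 and 1.51. This measure depends on the level of the ratio as well as on its course over arrays.

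The 3 mice were compared within each array kind by limma's moderated F over single arrays, which sets mice against the spread between hybridisations of the same RNA. A kidney array shows the kidney RNA of a mouse against a liver pool, and a liver array its liver RNA against a kidney pool. A like place on both kinds is therefore not the same organ of that mouse measured again. On the kidney arrays, all 4 genes passed, beside 73.9% of all probes. Mouse 2 minus the mean of mice 1 and 3 was -1.59 for Kap (adjusted p 0.00107), -1.27 for Akr1c21 (0.00224), -1.38 for Cyp4b1 (0.000474) and 0.48 for Nat8 (0.0199). Mouse 3 had 1 kidney array. On the liver arrays, 86.2% of all probes passed, and so did Akr1c21 at -1.30 (adjusted p 8.35e-05), Cyp4b1 at -0.94 (0.000179) and Nat8 at 0.60 (0.000855), whereas Kap was at -0.42 (0.609). Mouse 2 lay above the mean of mice 1 and 3 for 10.9% of probes on kidney arrays and 6.21% on liver arrays, and Nat8 was among them on both. These shares are over all probes as deposited, so they include the lower array medians of mouse 2.

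The difference of mouse 2 was smaller after centring for the 3 leading genes on the kidney arrays and larger for Nat8 on both kinds. On the kidney arrays, 49.9% of probes passed after centring, and mouse 2 minus the others was -0.22 for Kap (adjusted p 0.197), 0.10 for Akr1c21 (0.0341), -0.011 for Cyp4b1 (0.980) and 1.85 for Nat8 (0.000134; limma). Of probes on liver arrays 39.2% passed, and the values were 0.92 for Kap (0.207), 0.035 for Akr1c21 (0.741), 0.40 for Cyp4b1 (0.0557) and 1.93 for Nat8 (2.16e-05). With every array of each organ aligned to a common median of the 2967 bright probes, those whose ratios seldom recur exactly on an array, the kidney arrays gave -1.40 for Kap, -1.08 for Akr1c21, -1.19 for Cyp4b1 and 0.67 for Nat8. For liver arrays the aligned values were -0.07, -0.95, -0.59 and 0.94 in the same order. All 4 genes are bright probes. For Nat8 the direction held as deposited, after centring and after alignment, whereas after centring it turned for Akr1c21 on both kinds of arrays and for Kap and Cyp4b1 on the liver arrays. Both adjustments raised mouse 2 against the other mice, so a difference already positive as deposited, like that of Nat8, could not turn.

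Among bright probes the place of mouse 2 varied with the size of the kidney excess, and the 4 genes were set against probes of like ratio. Bins were taken on the mean of mice 1 and 3 after the values were seen. Noise in that mean lowers the difference in high bins by construction. On the kidney arrays the median of mouse 2 minus the others was -0.13 for 915 probes with a ratio of 0 to 1, -0.47 for 498 from 1 to 2.5, -0.90 for 122 from 2.5 to 4, -0.99 for 46 from 4 to 5.5 and -1.34 for the 13 above 5.5 other than Kap, Akr1c21 and Cyp4b1. On the liver arrays the same bins gave -0.29, -0.63, -1.05, -1.17 and -1.27 (15 probes in the last). The lower values of Akr1c21 and Cyp4b1 in mouse 2 thus lay within what probes of like kidney excess showed, with 7 and 6 of 13 probes lower than them on the kidney arrays and 6 and 12 of 15 on the liver arrays. Kap lay above all 15 probes of its bin on the liver arrays and above 4 of 13 on the kidney arrays. Nat8 was above 92.8% of the 498 probes of its bin on kidney arrays and above 96.0% of 570 on liver arrays. In that bin mouse 2 lay above the others for 22.3% of the probes on kidney arrays and 16.8% on liver arrays.

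**Figure D3:**
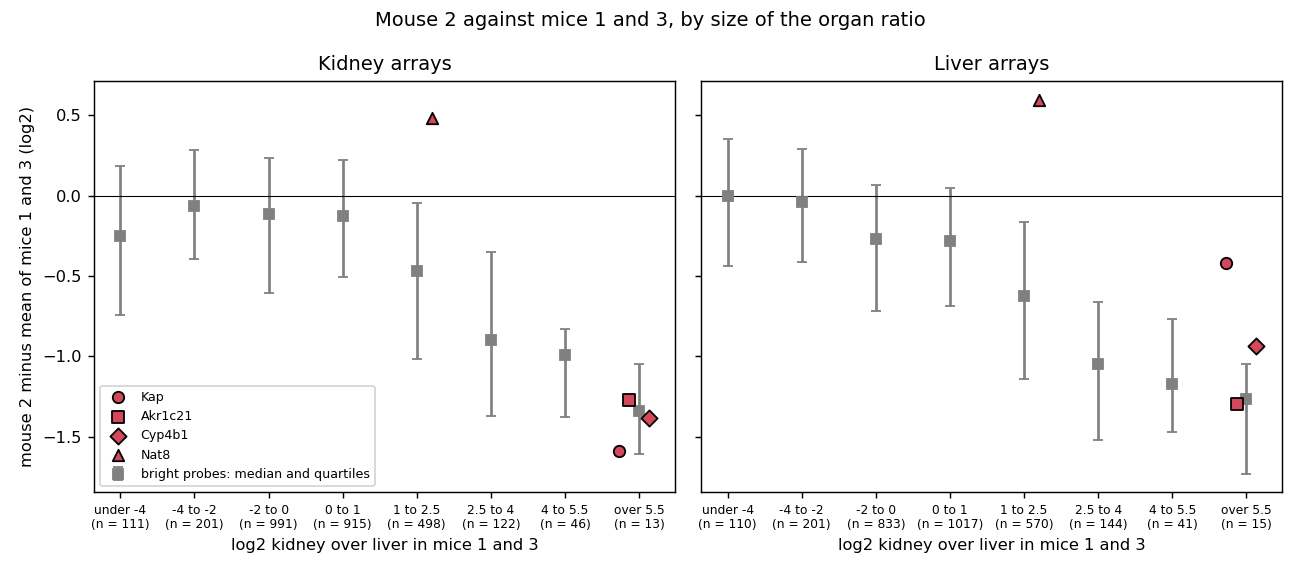
Difference of mouse 2 from the mean of mice 1 and 3 in log2 ratio, by the ratio of kidney over liver in mice 1 and 3, for bright probes on kidney and on liver arrays; grey squares and bars give the median and quartiles of each bin without the 4 genes, which are drawn in red. The medians are -0.13 and -0.29 for ratios of 0 to 1 and -1.34 and -1.27 for ratios above 5.5, and Nat8 lies above 0 in both panels.

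Of 16 other genes that androgens are known to raise in mouse kidney, 7 had a probe with a single symbol. Cndp2, a dipeptidase, was the 1 gene called higher in kidney, while 5 favoured liver, with a median of -1.43. Over all genes 5.56% were called higher in kidney and 8.88% in liver, with a median of -0.48. Cndp2 was at 1.25 (SE 0.32, limma adjusted p 0.0339), but its 2 probes were called in opposite directions, at 3.91 and -1.76. The 3 largest liver excesses were in Cyp2d9, a P450 of steroid hydroxylation (-3.72, SE 0.23), Cyp7b1, an oxysterol hydroxylase (-2.09, SE 0.22), and Hsd11b1, which regenerates active glucocorticoid (-1.76, SE 0.20). Odc1, ornithine decarboxylase, was at -0.68 (SE 0.38, adjusted p 0.212), and Gusb had no probe with a single symbol. Centring left 1 and 4 genes on these sides and a median of -0.97, beside 19.5% and 12.4% of all genes and a median of -0.01 over them. With mouse as a replicate block, with 1 value per mouse, with a random block or on the kidney arrays alone, 0 had a kidney excess in limma, and 4, 4, 5 and 3 had a liver excess. Over all probes, these settings called 427 of 18670, 429 of 18508, 1242 of 18670 and 332 of 18784 higher in kidney. Higher in liver were 539, 539, 2899 and 442 of these probes. Without mouse 1 or without mouse 3 the numbers of listed genes were 0 and 3, and without mouse 2 they were 1 and 5. Over all probes they were 250 and 450 of 15051 without mouse 1 and 303 and 496 of 17969 without mouse 3. Without mouse 2 they were 2747 and 2126 of 14864.

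Genes of steroid metabolism and receptor function, of which 22 of 34 listed were measured, fell on both sides. Of the 22, 3 had a kidney excess and 6 a liver excess (median -0.46), beside 5.56% and 8.88% of all genes. After centring the numbers were 8 and 5, beside 19.5% and 12.4% of all genes. Higher in kidney were Hsd3b4, a 3-beta-hydroxysteroid dehydrogenase (1.78, SE 0.34), the receptor coactivator Ncoa4 (1.20, SE 0.29) and Fkbp5, a chaperone partner of steroid receptors (0.95, SE 0.26). The largest liver excesses were those of Hsd17b6, a hydroxysteroid dehydrogenase (-3.59), Hsd17b2, which oxidises testosterone (-3.34), and Hsd3b7, a bile acid enzyme (-3.08). Hsd3b4 was highest in mouse 2, as Nat8 was, with kidney-array averages of 1.01, 3.14 and 0.87 in mice 1, 2 and 3, and on liver arrays it was at 1.44, 2.52 and 1.67.

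Of 34 listed relatives of the 4 genes, 14 were measured, and 1 had a kidney excess and 5 a liver excess (median -0.51). Over all genes the shares were 5.56% and 8.88%. After centring the numbers were 2 and 5, beside 19.5% and 12.4% of all genes. In RefSeq's gene order Nat8 lies in a cluster of Nat8 family genes, between Nat8f5 and Nat8f2. Nat8f2, its direct neighbour, was higher in liver at -2.79 (SE 0.26, limma adjusted p 0.000145), with averages of -2.86, -2.35 and -3.70 on kidney arrays of mice 1, 2 and 3 and -2.66, -2.04 and -3.14 on liver arrays. Nat8f3, of the same cluster, was higher in kidney at 2.05 (SE 0.25, adjusted p 0.000774), with averages of 1.98, 1.53 and 2.87 on kidney arrays and 2.04, 1.48 and 2.41 on liver arrays. Thus both had the same sign in all 6 averages, and as deposited mouse 2 was lowest for Nat8f3 but highest for Nat8. The arrays of mouse 2 had a median between -1.49 and -1.19 over all probes, so its place for Nat8f3 depends on centring. No contrast between Nat8f3 and Nat8 is drawn from it. Nat8f1 was at 0.46 (adjusted p 0.134), and was called after centring (0.0320).

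Akr1c21 lies between Akr1c20 and Akr1e1. Of its family, Akr1b8 (-3.52, SE 0.39) and Akr1c19 (-1.28, SE 0.20) were higher in liver, and Akr1e1 was at -0.37 (SE 0.31, adjusted p 0.370). Among cytochromes of the Cyp4 family, Cyp4f13 (-2.30) and Cyp4f18 (-1.86) were higher in liver. Cyp4a14, near Cyp4b1 in gene order, was at -0.33 (SE 0.32, adjusted p 0.434). Of 40 protein-coding neighbours of the 4 genes, 5 on each side, 14 were measured, of which 2 had a kidney excess (Nat8f3 and Pfkp) and 2 a liver excess (Nat8f2 and Akr1c19), beside 5.56% and 8.88% of all genes. A cDNA probe can bind RNA of close relatives, and the specificity of the 4 probes was not tested.

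Markers of cell types gave the setting of these values. The 8 proximal tubule markers had a median of 4.60 and ranged from 3.03 to 5.18, led by Miox, myo-inositol oxygenase (5.18), the endocytic receptor gene Cubn (5.16) and the sulfate carrier Slc13a1 (5.15). Kap, Akr1c21 and Cyp4b1 lay above all 8 and Nat8 below all 8. Markers of the S3 segment, the last of the proximal tubule, were mixed: Slc5a1, a glucose carrier, was at 2.00, Cyp7b1 at -2.09, and Slc22a7 (0.02) and Atp11a (-0.08) did not pass. All 3 distal nephron markers measured were higher in kidney (median 3.87), namely Cdh16 (5.15), Umod (3.87) and Aqp2 (2.86). Of 4 adrenal cortex markers, which would mark adrenal tissue taken with the kidney, 0 were called in limma at a gene-level adjusted p under 0.05, with estimates from -0.61 to -0.44 and a lowest unadjusted p of 0.0728. None of them had a bright probe. The share of values that recurred exactly was 0.6 for Cyp11a1, 0.5 for Cyp21a1, 0.75 for Fdx1 and 0.8 for a probe of Star. The lack of a call thus does not show that adrenal tissue was absent. Of 5 leukocyte markers 1 was called, Tyrobp, which was higher in liver (-2.92), and the fat marker Adipoq (-0.72) did not pass. After centring, Cd74 was also called, higher in kidney at 0.71 (limma adjusted p 0.0122), as were 19.5% of all genes. The recurring share was also high for Ptprc (0.778), Cd52 (0.7) and Adipoq (0.6), but not for Cd74 (0.1).

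**Figure D4:**
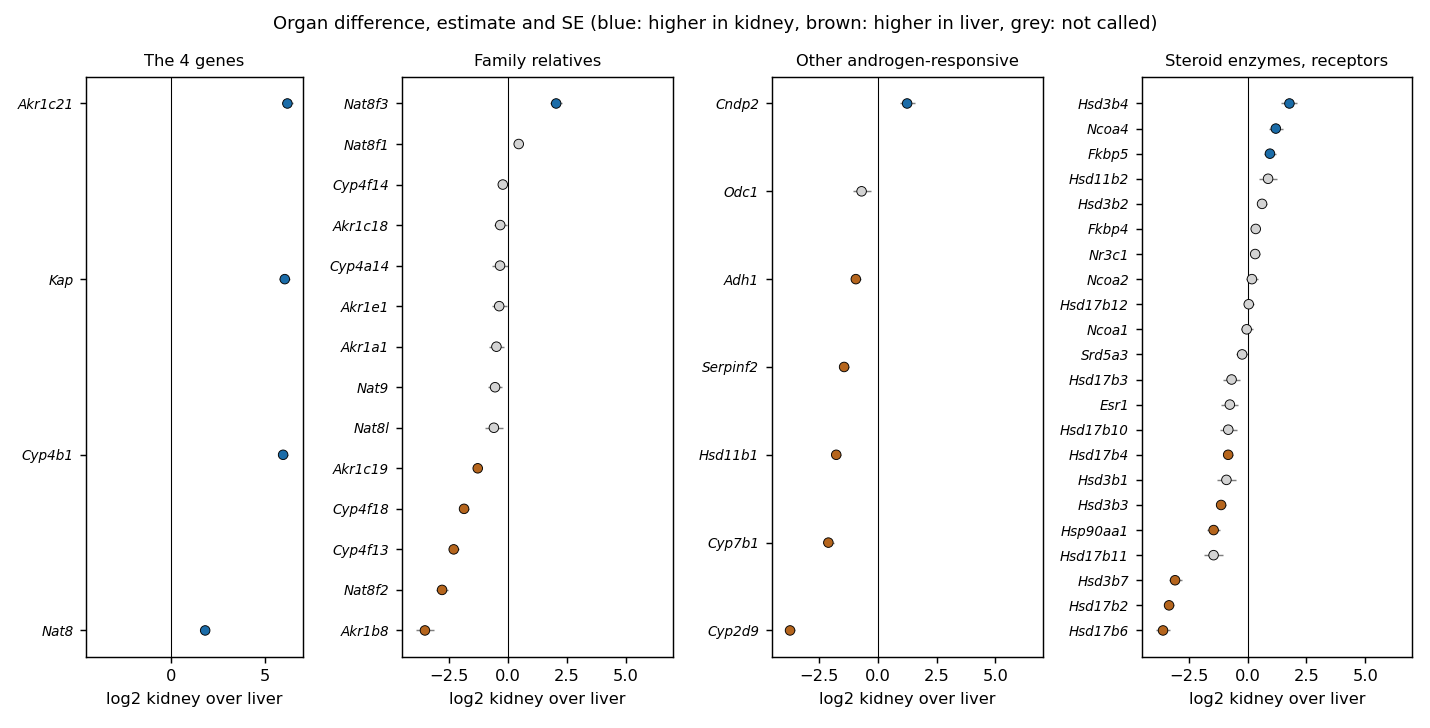
Estimated log2 ratio of kidney over liver for the 4 genes, their relatives, other androgen-raised genes, and genes of steroid metabolism and receptor function, with 1 point per gene and its SE as a bar; blue points were called higher in kidney, brown points higher in liver, and grey points were not called. The 4 genes lie at 1.82 and above, while Cndp2 at 1.25 is the one blue point among the other androgen-raised genes.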

How the data were processed

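Per the labels, 20 µg of total RNA was reverse transcribed and labelled indirectly with Cy3 or Cy5, slides were scanned with a GenePix 4000A, and GenePix Pro 3.0 gave background-subtracted intensities whose ratios were normalised to a median of 1. The dye of each sample is not given in the sources used here. The authors deposited 1 log2 ratio per probe and array. As the labels give no base, it was read from 144 spacings between recurring values: 140 fitted base 2 (small whole-number ratios, up to 10, within 1e-04), 16 fitted log10 and 0 base e. A probe's gene came from the platform annotation (11723 probes with 1 symbol, 806 with several, 7890 with none), and 11590 of the first matched RefSeq.

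Repeat arrays were averaged to 6 values, 1 per mouse and organ. These were fitted in limma 3.58.1 under R 4.3.3, with an intercept for kidney over liver and a covariate for array kind. A probe needed values from at least 2 mice per organ. Genes were the mean of their probes. Two-sided p-values were adjusted over everything tested (Benjamini-Hochberg, threshold 0.05). A probe was bright where at most 0.1 of its values recurred exactly on their array, judged on mice 1 and 3 with at least 8 of their 10 arrays measured (14.5% of probes). Figures were drawn with matplotlib 3.10.9, and the scripts were tested on simulated data.

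Per the labels, a mouse number means one animal throughout. As single sample over pool, the kidney and liver deviations of mice 1, 2 and 3 from the other mice correlated at -0.591, -0.795 and -0.585 over 14688 probes, which is positive as kidney over liver. A replicate block was an alternative, and SEs of kidney over liver without it tend to be too small. For the difference between array kinds of the 4 genes, SEs were larger without the block (0.46 to 0.62) than within mice (0.18 to 0.27).

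The 4 genes and all lists were chosen with earlier results of these data known. Named were these 4, from every other list the 3 called genes farthest from 0 on each side, Odc1 and Gusb, and the 3 genes nearest to each of the 4. Nat8f1, Akr1e1, Cyp4a14, Akr1c19, Cyp4f18, Pfkp and the markers that did not pass were named after their values were seen. The alternatives were other normalizations, filters, variances and blocks, single array kinds and leaving out each mouse. No genome and no protein sequences were used here. One more gene that the naming rule lists is not reported here.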

Additional observations from a re-analysis of the deposited data

How the results depend on the processing

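Each of Kap, Akr1c21, Cyp4b1 and Nat8 kept its kidney call under all 16 alternatives, from 5.81 to 6.77, 5.81 to 6.93, 5.71 to 6.68 and 1.64 to 2.27 in that order, with adjusted p of at most 0.0412. Counts over all probes moved more. The 967 probes higher in kidney became 3328 after centring each array, 1542 with arrays aligned on bright probes, 1980 with quantile normalization, 3578 with scaling to 1 spread, 1506 with trend and robust variances, 427 with mouse as a replicate block, 429 with 1 value per mouse, 332 on kidney arrays alone and 599 on liver arrays alone, and lay between 250 and 2747 when a mouse was left out. The 1391 higher in liver became 2117 after centring, 11629 with quantile normalization, 2252 with scaling, 539 with the replicate block and with 1 value per mouse, 2899 with a random block and 442 on kidney arrays alone, and 450 to 2126 when a mouse was left out. Without mouse 1 these counts were 250 and 450, without mouse 2 2747 and 2126, and without mouse 3 303 and 496. Of the other androgen-raised genes, 0 in place of 1 were higher in kidney under the replicate block, 1 value per mouse, the random block and kidney arrays alone, and 0 to 1 when a mouse was left out. Of these genes, 3 in place of 5 were higher in liver on kidney arrays alone, and 3 to 5 when a mouse was left out. Centring moved mouse 2 minus the others to -0.22, 0.10 and -0.011 on kidney arrays for Kap, Akr1c21 and Cyp4b1, and to 0.92, 0.035 and 0.40 on liver arrays. The cause of these changes was not tested. The replicate block left the differences between array kinds uncalled, with adjusted p from 0.597 (Cyp4b1) to 0.991. The number of mice and the single kidney array of mouse 3 limit the precision.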

Other observations

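Akr1b8, an aldo-keto reductase relative of Akr1c21, had a smaller liver excess on the arrays of mouse 1 than on those of the other mice. Its log2 ratio of kidney over liver in mouse 1 averaged -2.30 over kidney arrays and -2.03 over liver arrays, against -3.91 and -3.90 in mouse 2 and -4.74 and -4.24 in mouse 3. These values are as deposited, and this difference between mice was not tested for this gene alone. On each array the opposite organ came from a pool, so these values do not compare kidney and liver within a mouse.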
